A study of Mus musculus with 9 samples.

Results

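Mouse cells labelled as dedifferentiated cardiac fibroblasts were compared with cells labelled as adult cardiac fibroblasts. The comparison uses 6 of the 9 arrays of the study, namely the 3 arrays titled as dedifferentiated cardiac fibroblasts and the 3 titled as cardiac fibroblasts. The arrays were chosen by their titles alone. The comparison covers 19938 genes, each represented by 1 row of the table. The study asked whether pluripotent cells can be obtained from adult somatic cells by a protein-based procedure, as its title states. The other 3 arrays hold embryonic stem (ES) cells, which serve here as a reference and add to the estimate of the spread between arrays.

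All 3 groups are labelled with the strain C57BL/6. The fibroblasts are labelled as adult mouse cardiac fibroblasts and carry no treatment in the labels. The dedifferentiated cells have no further description than that they are dedifferentiated cardiac fibroblasts. Neither the proteins used, nor the time after treatment, nor a clone, an animal number, an age, a passage or a feeder layer is given in the labels. The source field of the fibroblast arrays also contains the words for ES cells, and the titles were followed. Replicate numbers are given, but nothing says that replicates came from separate animals or cultures, so the p-values rest on array-to-array spread that could be purely technical. Total RNA was hybridised to the Affymetrix Mouse Gene 1.0 ST array, whose probes lie along the whole transcript. In such bulk samples, fewer cells of a type and less RNA per cell cannot be told apart.

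Fibroblasts are the cells that build and remodel the connective tissue of the heart. They secrete collagens, proteoglycans and elastic fibre proteins, cut this matrix with metalloproteinases, grip it through integrins and a contractile actin skeleton, and answer injury with cytokines and interferon-induced genes. Pluripotent stem cells, in contrast, grow as tight epithelial-like colonies on a laminin-rich basement membrane and cycle rapidly. They depend on particular amino acids such as threonine and glycine. They also express a set of microRNAs that promote cell division, and genes otherwise seen in germ cells.

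One group of such microRNA genes is the Mir17 cluster, a single transcript on chromosome 14 that is cut into several hairpins. Its members were chosen for description after their values had been seen. The mature microRNAs of the measured hairpins fall into seed families, the seed being bases 2 to 8, which pair with target messages. Mature sequences are from RefSeq (GRCm38.p6), written 5′ to 3′ with the seed in capitals, and are shown because hairpins of 3 seed families rose together. The hairpins lie between chr14:115043671-115044391 on the plus strand.
miR-17-5p: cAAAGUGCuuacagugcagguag
miR-20a-5p: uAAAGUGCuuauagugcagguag
miR-18a-5p: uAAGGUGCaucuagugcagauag
miR-19a-3p: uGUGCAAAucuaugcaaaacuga
miR-19b-3p: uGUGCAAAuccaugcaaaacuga
miR-17 and miR-20a share the seed AAAGUGC, and miR-19a and miR-19b share the seed GUGCAAA. The seed of miR-18a is AAGGUGC.

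A change is called here where the limma fit of all genes gave an adjusted p (Benjamini-Hochberg) below 0.05 and the group means lay 1 log2 unit, which is 2-fold, or more apart. Values are log2 expression, and a change is the mean of the dedifferentiated arrays minus the mean of the fibroblast arrays. Words such as rose and fell refer to this difference between groups. By this call 1753 genes were higher in the dedifferentiated cells, 8.79% of all genes, and 2012 were lower, 10.1%. These percentages are the background for every count below. Where a list is said to have no member called in a direction, at most 2 of its members passed an unadjusted p of 0.05 that way in the limma fit, apart from the symbol families described separately. For each called gene, the 3 arrays of one group lay entirely above the 3 of the other. Since the call already asks for means 1 log2 unit or more apart, this adds no separate support. The share of such genes among all genes is not given here.

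All 5 measured hairpins of the Mir17 cluster rose, as did the host transcript. The largest rise was that of Mir20a, which read 2.89, 3.45 and 3.43 in the fibroblasts and 5.83, 5.89 and 6.50 in the dedifferentiated cells. Its change was 2.82 (95% confidence interval 2.39 to 3.25, adjusted p = 1.9e-07). Mir18 read 3.71, 3.01 and 3.59 in fibroblasts and 5.88, 5.96 and 6.23 in dedifferentiated cells, a change of 2.58 (2.22 to 2.95). The groups stood well apart for both genes, and the third dedifferentiated array was the highest for each. Mir19b-1 rose by 2.27 and Mir19a by 2.06, so both hairpins that yield the GUGCAAA seed changed by a similar amount. Mir17 had the smallest rise, 1.01 (0.72 to 1.30, adjusted p = 4.0e-05), from 2.99, 3.41 and 2.99 to 4.25, 3.90 and 4.28. That rise fell under the threshold when 1 array was left out, at 0.94 without fibroblast replicate 1 or 3, 0.96 without dedifferentiated replicate 1 and 0.95 without dedifferentiated replicate 3. The host transcript Mir17hg rose by 1.24. All of these rows are dim, with dedifferentiated means from 4.14 for Mir17 to 6.07 for Mir20a, where array medians were 4.65 to 4.86. Between ES cells and fibroblasts, Mir17 (0.90) and Mir17hg (0.84) were not called, while the other hairpins were called higher. In ES cells Mir20a read 5.99, 5.61 and 5.74 and Mir19b-1 read 5.56, 5.22 and 5.72, and no member of the cluster was called different between dedifferentiated and ES cells. The array cannot tell the primary transcript, the hairpin and the mature form apart.

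**Figure D1:**
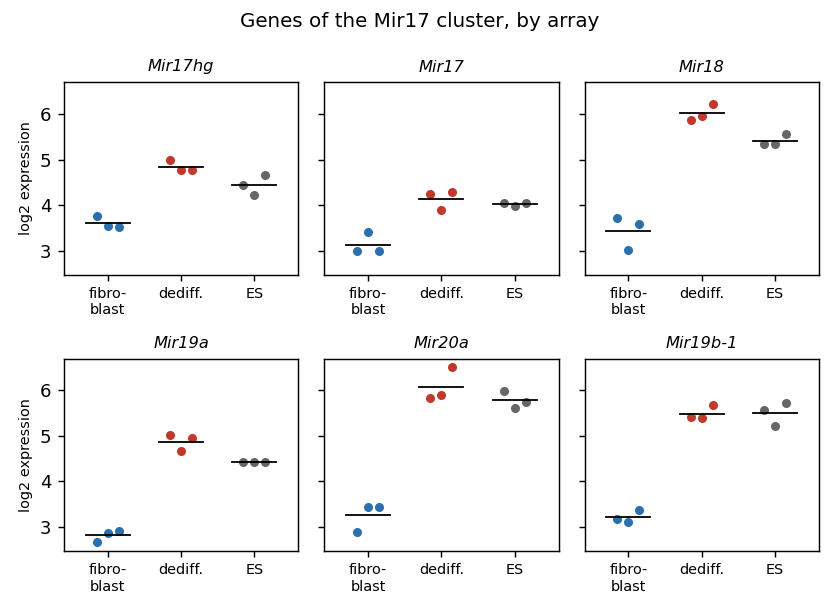
Log2 expression of the host transcript and the 5 measured hairpins of the Mir17 cluster (vertical axis) in fibroblast, dedifferentiated and ES arrays (horizontal axis). Points are arrays and bars are means of 3 arrays. In every panel the 3 dedifferentiated arrays lie above the 3 fibroblast arrays.

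Most microRNA genes did not move. Of 296 microRNA genes measured, including the Mir17 hairpins above, 12 (4.05%) were higher and 2 (0.676%) were lower, below the share among all genes. One further riser was Mir363, which belongs to a related cluster on the X chromosome and rose by 1.05, from 3.07, 2.99 and 2.85 to 3.58, 4.35 and 4.15. Its call was lost without fibroblast replicate 3 (0.99), dedifferentiated replicate 2 (0.89) or dedifferentiated replicate 3 (0.99). The mature miR-363-3p carries the seed AUUGCAC, as in its sequence.
miR-363-3p: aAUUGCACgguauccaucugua
The fallers were Mir145a, a microRNA enriched in smooth muscle and mesenchymal cells, by -1.54, and Mir568 by -1.52.

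The identity of the groups was checked first with lists of markers. All 15 listed cardiac fibroblast markers were lower in the dedifferentiated cells, with a median change of -4.44, and all 12 listed ES cell markers were higher, with a median of 6.23. Over all genes the median change was 0.01. Over all 35557 rows of the table, array medians lay between 4.65 and 4.86. Pearson's r across these rows was 0.991 to 0.995 between arrays of one group and 0.915 to 0.923 between groups. The groups also differed in sex-linked transcripts. Xist, the RNA that silences one X chromosome in female cells, read 7.39, 7.24 and 7.31 in the fibroblasts and 3.49, 3.07 and 3.18 in the dedifferentiated cells. The Y-linked translation factor Eif2s3y read 3.51, 3.69 and 3.45 in fibroblasts and 8.18, 7.95 and 8.13 in dedifferentiated cells. A difference between these groups therefore need not be a change within the same cells. Of 742 genes on the X chromosome, 87 (11.7%) were higher and 92 (12.4%) lower. Of 9 genes on the Y chromosome, 4 (44.4%) were higher in the dedifferentiated cells, and the lowest change was -0.06. In ES cells, 3 of these 9 were higher than in fibroblasts.

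**Figure D2:**
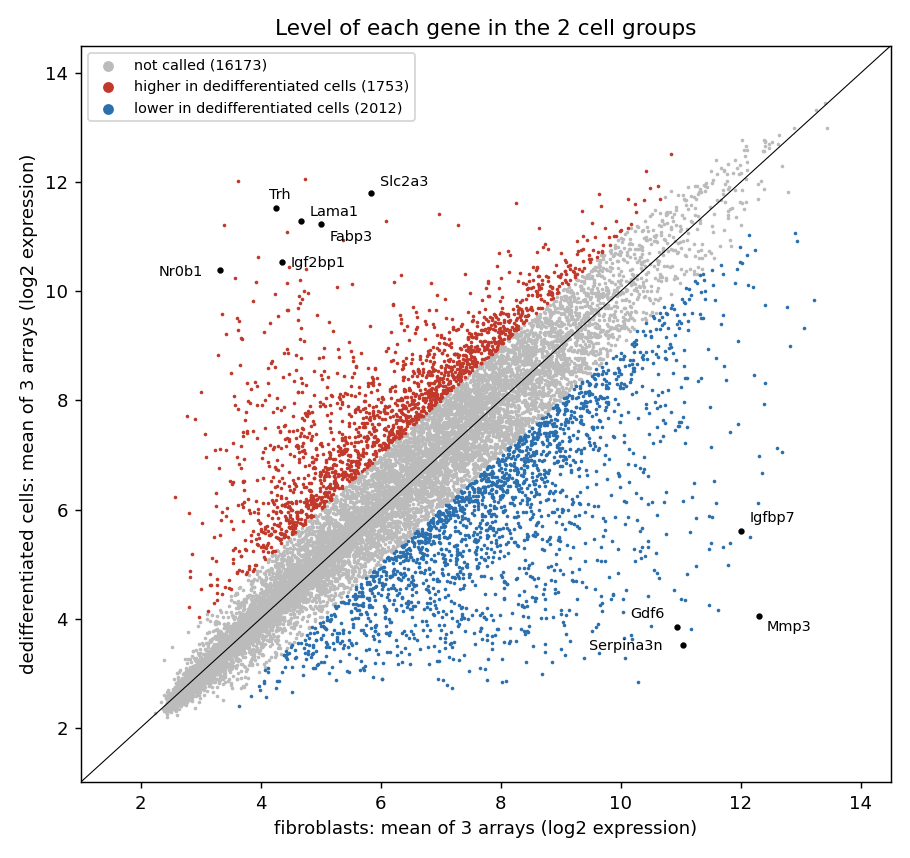
Mean log2 expression of each gene over the 3 fibroblast arrays (horizontal axis) and the 3 dedifferentiated arrays (vertical axis), with the line of equal level. Red points are the 1753 genes called higher and blue points the 2012 called lower. By 4 log2 units or more, 187 genes lie below the line and 78 above it, and Mmp3 lies 8.27 below.

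Large falls outnumbered large rises. By 4 log2 units or more, 187 genes were lower and 78 higher, and by 6 or more, 28 were lower and 13 higher. In many cases the group with less RNA read low on the scale of the array. Among the higher genes, 504 had a fibroblast mean under 5, and among the lower genes, 650 had a dedifferentiated mean under 5. A log2 change from such a level can understate the true ratio, because a dim probe set reads background as well as target.

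Leaving aside ES markers, collagens and unnamed clones, the largest rise was that of Trh, which encodes the precursor of thyrotropin-releasing hormone. Trh read 4.20, 4.36 and 4.22 in fibroblasts and 11.42, 11.61 and 11.55 in dedifferentiated cells, a change of 7.27 (7.09 to 7.45, adjusted p = 4.9e-13). It read 8.25, 8.15 and 8.15 in ES cells, so the dedifferentiated cells stood 3.34 above these as well (adjusted p = 5.5e-09). The orphan nuclear receptor gene Nr0b1 (Dax1) went from 3.45, 3.31 and 3.21 to 10.34, 10.37 and 10.46, a rise of 7.06. Bex1, an X-linked gene for a small adaptor protein, rose by 6.66. Nr0b1 and Bex1 lay within 0.23 log2 units of their ES cell means.

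Other large risers included a lipid carrier and transporters, although solute carriers as a family stood near the background, with 36 of 376 higher (9.57%), 40 lower (10.6%) and a median of -0.01. Fabp3, the heart-type fatty acid binding protein, rose by 6.23, from 5.08, 5.20 and 4.72 to 11.20, 11.27 and 11.22, and its second row rose by 5.93. Slc2a3, the high-affinity glucose transporter GLUT3, went from 5.76, 5.85 and 5.93 to 11.80, 11.78 and 11.83, a rise of 5.96. Chchd10, a protein of the mitochondrial intermembrane space, rose by 5.20, and the uridine-splitting enzyme Upp1 by 5.27. The water channel gene Aqp8 read 4.56, 4.72 and 4.66 in fibroblasts and 9.64, 9.96 and 10.12 in dedifferentiated cells. Its rise of 5.26 took it 2.87 above the ES cells (adjusted p = 2.1e-07), in which it read 6.95, 7.04 and 7.13.

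The other large risers had varied functions. Igf2bp1, an RNA-binding protein of embryonic and tumour cells, rose by 6.18, and a second, dimmer row for it rose by 3.84. L1td1, an RNA-binding protein derived from a transposon, rose by 5.54. The methylation genes Dnmt3l, a cofactor of the DNA methyltransferases, and Tet1, which oxidises methylcytosine, also belonged to the largest rises, Tet1 with 5.19 and 3 rows that rose alike. Stmn2, a microtubule regulator of neurons, rose by 5.82, from 3.86, 3.98 and 3.06 to 9.52, 9.40 and 9.45. Zfp980 rose by 5.55, but it has near-identical neighbours on chromosome 4, so its signal cannot be assigned to it with certainty.

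The largest fall was that of Mmp3, stromelysin-1, a protease that degrades proteoglycans and fibronectin. Mmp3 read 12.30, 12.24 and 12.40 in fibroblasts and 3.86, 4.30 and 3.97 in dedifferentiated cells, a change of -8.27 (-8.61 to -7.93, adjusted p = 5.3e-12). The serine protease inhibitor gene Serpina3n fell by 7.52 (-7.77 to -7.26). Ptx3, the long pentraxin of innate immunity, fell by 7.47. Adamts5, the main aggrecan-cutting enzyme, fell by 7.36, from 11.08, 11.17 and 11.27 to 3.86, 3.98 and 3.61. For all 4 genes the groups lay more than 7 log2 units apart.

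The other large falls included several secreted signals. Gdf6, a ligand of the BMP family, fell by 7.10. Adm, which encodes the vasodilator adrenomedullin, fell by 6.44, from 11.82, 11.86 and 11.79 to 5.29, 5.55 and 5.32. Vegfd, a growth factor for lymphatic vessels, went from 11.71, 11.77 and 11.67 to 5.39, 5.39 and 5.16, a fall of 6.40. Ch25h makes 25-hydroxycholesterol, a sterol with antiviral and signalling activity. It fell by 6.47, and it varied more in the fibroblasts (10.44, 9.57 and 10.49) than in the dedifferentiated cells (3.63, 3.72 and 3.74). The transcription factor gene Tcf21, which marks cardiac fibroblasts and their epicardial progenitors, fell by 6.63. The anchoring protein of latent TGF-beta, Lrrc32, fell by 6.29.

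**Figure D3:**
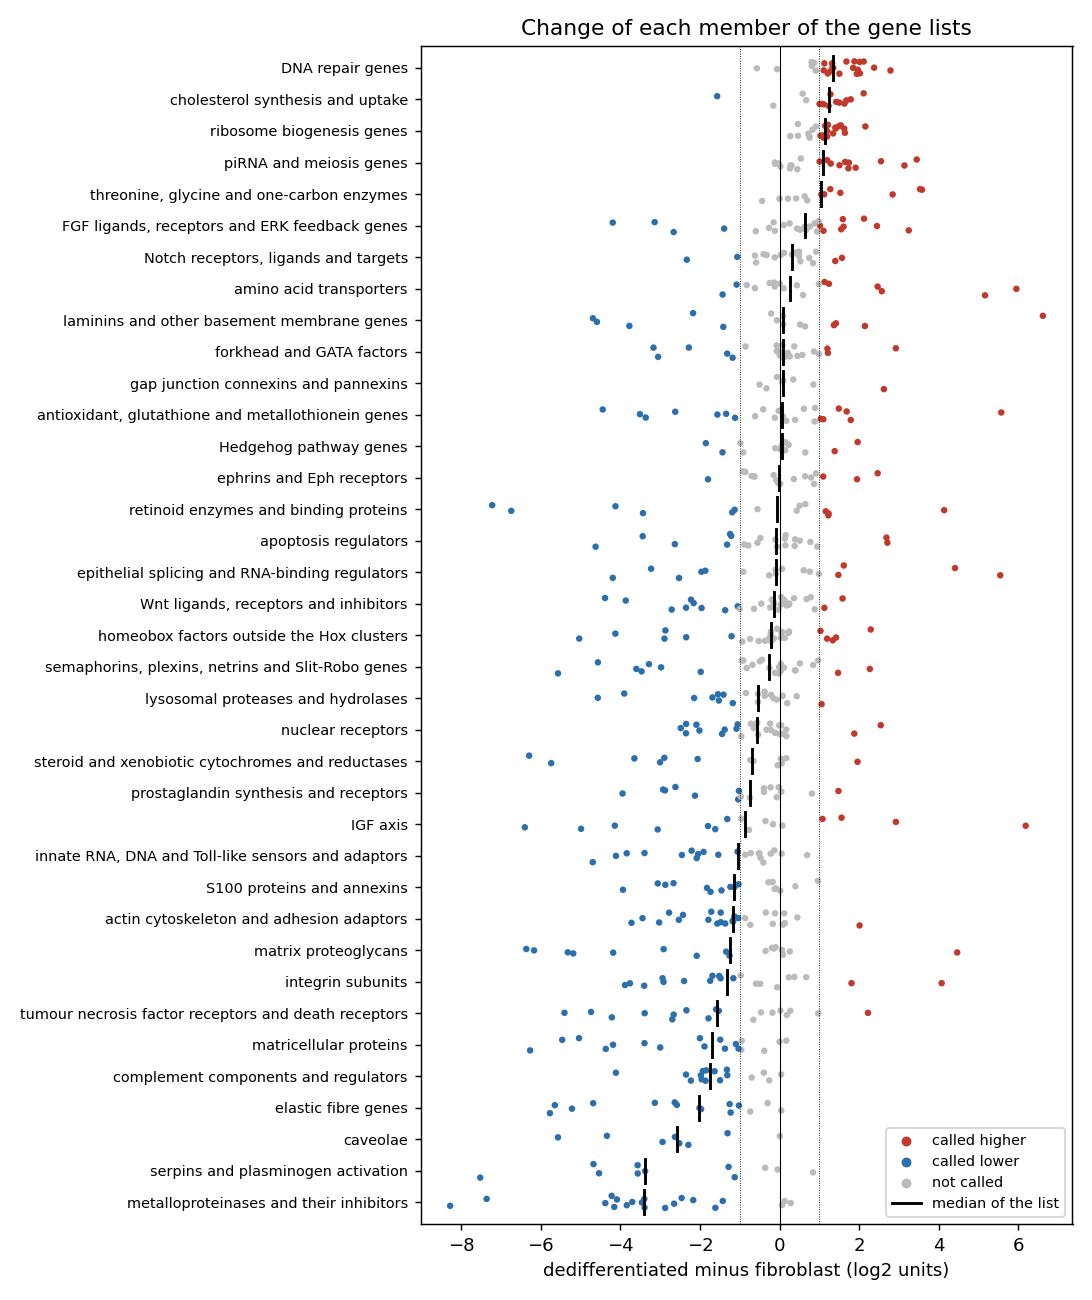
Change of every measured member of 37 gene lists, in log2 units (horizontal axis, dedifferentiated minus fibroblast), 1 list per line. Red and blue points were called higher and lower, grey points were not called, and the black bar is the list's median. Medians range from 1.34 for DNA repair genes to -3.39 for metalloproteinases.

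Most measured members of the lists of matrix proteases, serpins, elastic fibre genes, matricellular proteins and proteoglycans were lower. Of 20 measured metalloproteinases and inhibitors, 17 were lower and 0 higher, with a median of -3.39. Besides Mmp3 and Adamts5, these were for instance Adamts1 at -4.38 and Adamts12 at -4.22. The tissue inhibitors fell with the proteases, Timp3 by 4.08 and Timp1 by 3.84, while Mmp9, at 0.13, and Timp4, at 0.06, were not called. Of 11 serpins and plasminogen activation genes, 8 were lower, including Serpinb2 at -4.67, an inhibitor of urokinase.

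Elastic fibre genes had 12 of 15 members lower, with a median of -2.01. Mfap5, a microfibril protein, fell by 5.77, the fibulin gene Fbln2 by 5.64 and Efemp1 (fibulin-3) by 5.21. Of 18 matricellular proteins, which signal from the matrix without bearing load, 13 were lower and the median was -1.69. Postn (periostin) fell by 6.26, Ccn5 by 5.46 and Thbs2 (thrombospondin-2) by 5.04, while Sparc, at -0.38, was not called. Among 17 matrix proteoglycans, 9 were lower, led by Prelp at -6.36, Dcn (decorin) at -6.16 and Bgn (biglycan) at -5.32. The single riser of that list was Srgn (serglycin), an intracellular proteoglycan of secretory granules, at 4.46.

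Basement membrane genes moved both ways, with 4 of 15 higher and 5 lower. The chains of laminin-111, the laminin of the early embryo, all rose. Its alpha chain gene Lama1 read 4.72, 4.99 and 4.31 in fibroblasts and 11.22, 11.33 and 11.31 in dedifferentiated cells, a change of 6.61 (6.24 to 6.99, adjusted p = 4.8e-11). Lamb1 rose by 2.14, from 9.58, 9.59 and 9.73 to 11.66, 11.82 and 11.85, and Lamc1 rose by 1.37. Another alpha chain gene, Lama5, rose by 1.42, from 6.38, 6.54 and 6.61 to 7.91, 7.95 and 7.91. The alpha chain genes Lama4 and Lama2 went the other way. Lama4 read 9.63, 9.72 and 9.89 in fibroblasts and 5.12, 4.89 and 5.17 in dedifferentiated cells, a change of -4.69. Lama2 fell by 4.59, from 7.98, 8.06 and 8.38 to 3.63, 3.45 and 3.58, and Npnt (nephronectin), a ligand of integrin alpha-8, fell by 3.77.

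Integrins, the receptors for these proteins, were lower for 11 of 20 subunits and higher for 2. The risers were Itga6 and Itga3, whose products pair with beta subunits to bind laminin. Itga6 rose by 4.07 (3.75 to 4.39), and Itga3 rose by 1.81. The largest falls were those of Itgb8 at -3.88, a subunit that activates latent TGF-beta, Itga4 at -3.76 and the collagen-binding Itga1 at -3.40. Itgb1, the beta subunit shared by most of these receptors, fell by 1.74.

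Genes of caveolae and of the actin cytoskeleton were mostly lower. Of 8 genes of caveolae, the flask-shaped membrane pits, 7 were lower and the median was -2.57. Cavin2 fell by 5.56 and Ehd2, an ATPase at the neck of caveolae, by 4.34, while Cav1, the main coat protein, fell by 2.29, from 7.70, 7.77 and 7.84 to 5.42, 5.48 and 5.53. The exception was Pacsin2, at 0.01. Of 26 actin cytoskeleton and adhesion genes, 16 were lower, led by Acta2 (smooth muscle actin) at -3.72, the myosin light chain gene Myl9 at -3.44 and the tropomyosin gene Tpm2 at -3.02.

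The list's only riser was Ezr (ezrin), which links actin to the membrane of epithelial cells. Ezr read 7.21, 7.40 and 7.43 in fibroblasts and 9.29, 9.42 and 9.36 in dedifferentiated cells, a rise of 2.01 (1.83 to 2.19). Its relative Msn (moesin) fell by 2.53 (-2.72 to -2.34). The third relative, Rdx (radixin), stood at 9.73, 9.71 and 9.68 in fibroblasts and 9.84, 9.77 and 9.75 in dedifferentiated cells, a difference of 0.08 with an interval of -0.09 to 0.25. Among 8 connexins and pannexins, Gja1 (connexin 43), which forms channels between neighbouring cells, rose by 2.62 and no member was lower. S100 proteins and annexins, which bind calcium, had 10 of 17 members lower and none higher, with S100a16 at -3.93 and Anxa1 at -3.06, and 1 was higher without fibroblast replicate 2.

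**Figure D4:**
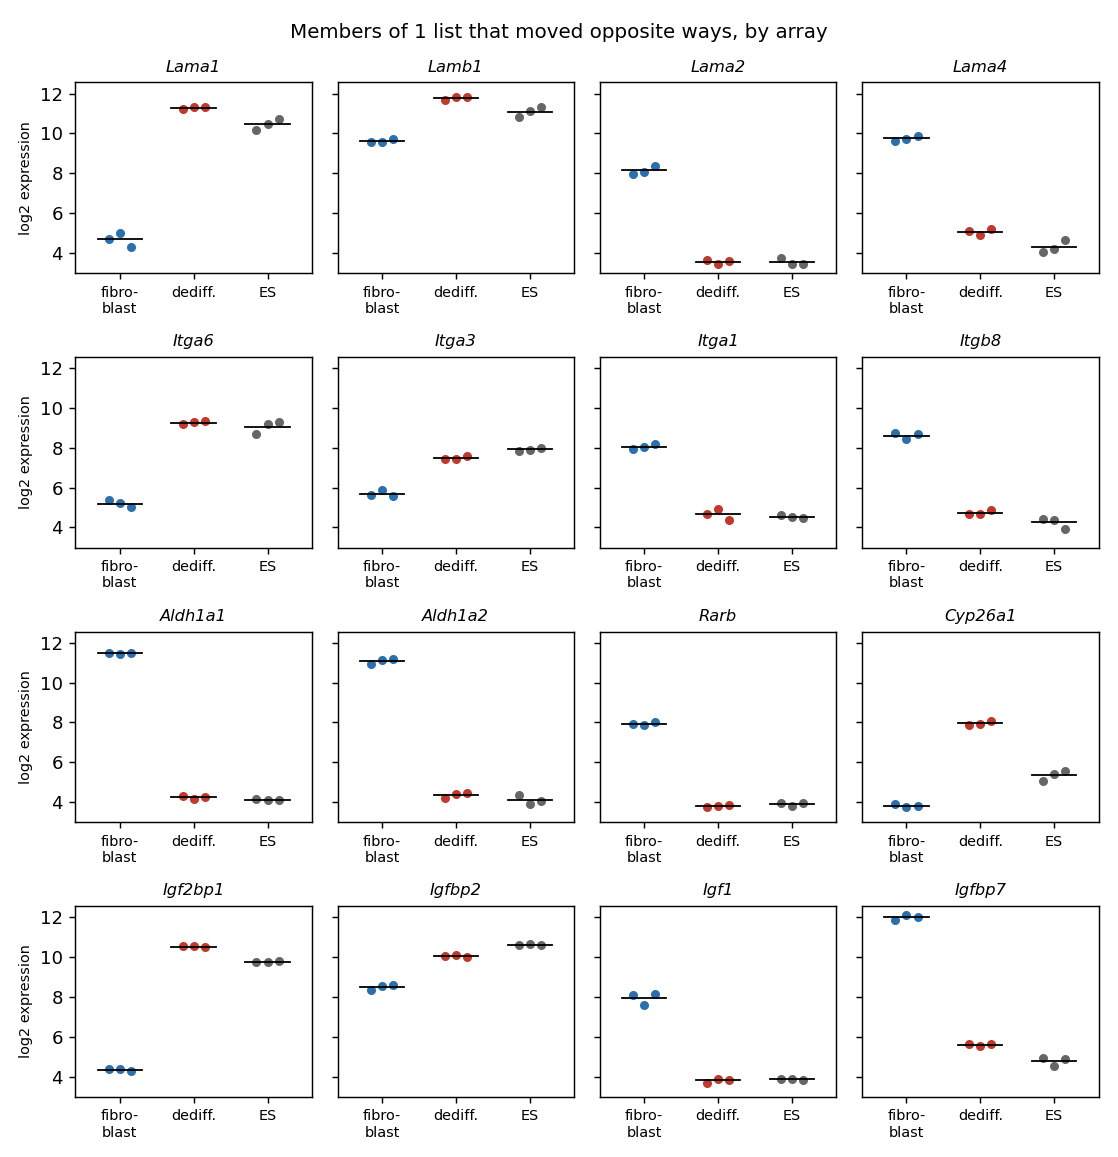
Log2 expression (vertical axis) of members of the laminin, integrin, retinoid and IGF lists that moved in opposite directions, in fibroblast, dedifferentiated and ES arrays (horizontal axis). Points are arrays and bars are means of 3 arrays. Lama1, Lamb1, Itga6, Itga3, Cyp26a1, Igf2bp1 and Igfbp2 are higher in the dedifferentiated than in the fibroblast arrays, and the other 9 genes are lower.

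Most measured members of the 3 immune lists were lower in the dedifferentiated cells. Of 16 complement components and regulators 12 were lower and 0 higher, with a median of -1.74. Counting genes above the median level alone left 3 lower, and at a group mean of 6 it left 7. The largest fall was that of Cfb (factor B) at -4.11. The subunits of C1q, which starts the classical pathway and is made mainly by macrophages, fell by similar amounts, C1qc by 1.98, C1qb by 1.96 and C1qa by 1.93. Of 21 innate sensors and adaptors, 11 were lower and none higher, and the median was -1.05. Zbp1, a sensor of left-handed nucleic acids, fell by 4.69, Sting1, the adaptor of cytosolic DNA sensing, by 4.11 and Ifih1 (MDA5), a sensor of double-stranded RNA, by 3.84. The Toll-like receptor genes Tlr2 at -0.48 and Tlr9 at -0.13 were not called. Of 18 tumour necrosis factor receptors and related genes, 10 were lower and 1 higher. Tnfaip6, a matrix-binding protein of inflammation, fell by 5.40 and Tnfrsf11b (osteoprotegerin) by 4.73, while the death receptor gene Tnfrsf21 rose by 2.22. Without fibroblast replicate 3, or without dedifferentiated replicate 1, 2 were higher.

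Interferon-induced genes carry a short element, a repeated GAAA separated by 2 bases, that their activators bind. Stretches of 3 promoters that hold GAAA, any 2 bases and GAAA again, on either strand, are shown, from RefSeq promoter windows (GRCm38.p6) that reach from 250 bases before to 50 after the start site. Matches that do not overlap are in capitals and read as the reverse complement on the printed plus strand. A further match in Gbp3, TTTCTATTTC, overlaps the marked one and is left partly in lower case. The genes were picked after their values had been seen.
Ifit1: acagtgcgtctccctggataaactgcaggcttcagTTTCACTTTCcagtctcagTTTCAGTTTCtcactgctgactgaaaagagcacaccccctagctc
Ifit3: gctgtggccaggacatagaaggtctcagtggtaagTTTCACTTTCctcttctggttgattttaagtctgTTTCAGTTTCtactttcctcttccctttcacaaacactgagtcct
Gbp3: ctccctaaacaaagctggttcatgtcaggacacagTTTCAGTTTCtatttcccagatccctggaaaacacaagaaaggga
The stretches lie at chr19:34640750-34640848, chr19:34583338-34583451 and chr3:142559964-142560043. The first match begins 104, 156 and 45 bases before the start site, respectively.

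All 3 genes were lower in the dedifferentiated cells. Ifit1, which binds viral RNA lacking a host cap, read 8.60, 8.62 and 8.98 in fibroblasts and 3.43, 3.57 and 3.59 in dedifferentiated cells, a change of -5.21 (-5.46 to -4.95, adjusted p = 1.4e-11). Ifit3 fell by 4.41, from 7.96, 7.42 and 8.19 to 3.42, 3.61 and 3.30. Gbp3, a guanylate-binding protein, fell by 4.36, from 9.04, 8.69 and 8.98 to 4.64, 4.39 and 4.60. Members of the Ifit and Gbp families resemble each other, and probes can share signal between copies. Over all promoter windows, 5.25% of those of lower genes held the letters, against 2.52% of those of higher genes and 3.27% of the 19177 windows. These shares are a description of letters, not of binding.

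Retinoic acid genes moved in both directions. Of the enzymes that make retinoic acid, Aldh1a1 and Aldh1a2 fell and Aldh1a3, at -0.55, was not called. Aldh1a1 read 11.47, 11.44 and 11.50 in fibroblasts and 4.30, 4.18 and 4.27 in dedifferentiated cells, a change of -7.22 (-7.37 to -7.07, adjusted p = 2.3e-13). Aldh1a2 fell by 6.74, from 10.94, 11.12 and 11.17 to 4.19, 4.39 and 4.44. The receptor gene Rarb, itself induced by retinoic acid, fell by 4.12. Cyp26a1, which breaks retinoic acid down and is also induced by it, rose by 4.13, from 3.92, 3.75 and 3.80 to 7.86, 7.93 and 8.10. Cyp26a1 was also 2.61 above the ES cells (adjusted p = 5.6e-07), which read 5.08, 5.39 and 5.58. Its relative Cyp26b1 moved the other way, at -1.19. Of the 14 measured genes of the list, 4 were higher and 6 lower, and the cellular binding protein genes Crabp1 and Crabp2 rose by 1.23 each.

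FGF ligands moved in both directions. Fgf7, a mesenchymal growth factor acting on epithelia, fell by 4.19 and Fgf2 by 3.14, while Fgf4, the autocrine factor of pluripotent cells, rose by 3.24 and Fgf5 by 1.59. Several genes that FGF and ERK signalling induces rose. Etv5 read 6.84, 6.92 and 6.92 in fibroblasts and 9.23, 9.38 and 9.41 in dedifferentiated cells, a change of 2.45. The feedback inhibitor gene Spry4 rose by 2.12, from 6.62, 6.79 and 6.97 to 8.90, 8.93 and 8.91. The phosphatase gene Dusp6 rose by 1.61. Spry4 was 1.78 above the ES cells (adjusted p = 3.1e-06), where it read 7.13, 6.95 and 7.32. Another feedback inhibitor, Spry1, fell by 2.66, and the list of 26 had 8 higher and 4 lower.

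In the insulin-like growth factor axis the ligand and several binding proteins fell. Igf1 fell by 4.14, from 8.10, 7.62 and 8.14 to 3.71, 3.88 and 3.85, and its binding protein gene Igfbp7 fell by 6.40. Pappa, a protease that frees IGF from its carriers, fell by 4.99. Igfbp2 rose by 1.56 (1.37 to 1.74), and the RNA-binding Igf2bp3 by 2.92. In all, 4 of 16 were higher and 7 lower.

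Other signalling lists moved less. Of 32 Wnt genes, 9 were lower and 2 higher, and the median was -0.14. The receptor genes Fzd4 at -4.38 and Fzd1 at -2.35 fell, as did the ligand gene Wnt5a at -2.71 and the inhibitor gene Sfrp1 at -3.86, while Tcf7l1, a repressor of Wnt targets in pluripotent cells, rose by 1.58. Of 19 Notch genes, 2 were higher and 2 lower. The ligand genes Jag1 at -2.33 and Jag2 at 1.40 went opposite ways. In the Hedgehog list, 2 of 13 were higher and 2 lower, and both risers, Ptch1 at 1.96 and Gli1 at 1.38, are targets of the pathway. Without fibroblast replicate 1, 4 Hedgehog genes were lower. Of 18 ephrins and Eph receptors 3 were higher, led by Ephb3 at 2.46, and 1 lower. Guidance cue genes had 7 of 27 lower, with Sema3d at -5.56 and Slit2 at -4.56, and 2 higher, with Sema6a at 2.27.

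Of 13 measured glycine and one-carbon enzymes, 7 were higher and none lower, with a median of 1.05. Gldc, the glycine decarboxylase that feeds one-carbon units into nucleotide synthesis, read 6.31, 6.21 and 6.08 in fibroblasts and 9.78, 9.76 and 9.78 in dedifferentiated cells, a change of 3.58 (3.40 to 3.75). Its partner in the glycine cleavage system, Amt, rose by 3.53, and Shmt1, which links serine to glycine, by 2.84. The mitochondrial enzyme genes Mthfd2 at 0.70 and Shmt2 at 0.00 were not called. Threonine dehydrogenase is not analysed here.

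Cholesterol synthesis genes rose together, 11 of 15 measured, with a median of 1.23. Insig1, a regulator of this synthesis rather than an enzyme of it, rose by 2.11. Dhcr7, which catalyses the last step, rose by 1.79 and Mvd by 1.68. The exception was Hsd17b7, at -1.57. Amino acid carriers had 6 of 18 higher and 2 lower, or 1 lower without fibroblast replicate 2. The largest rises were those of Slc38a4 at 5.95, Slc7a3 at 5.16, for cationic amino acids, and Slc7a7 at 2.57. Slc7a3 read 4.64, 4.62 and 4.82 in fibroblasts and 9.87, 9.75 and 9.95 in dedifferentiated cells, and was 1.18 above the ES cells.

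The antioxidant list split, with 6 of 24 higher and 7 lower. Gsta4, which detoxifies products of lipid peroxidation, rose by 5.57, from 5.57, 5.38 and 5.16 to 11.01, 10.84 and 10.97. The metal-binding metallothionein genes Mt1 and Mt2 rose by 1.79 and 1.69. The membrane-bound Mgst1 fell by 4.44, the extracellular superoxide dismutase gene Sod3 by 3.51 and Gpx8, a peroxidase of the endoplasmic reticulum, by 3.36. The inducible heme oxygenase Hmox1 was not called, with a difference of -0.02 (-0.21 to 0.17).

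Lists of steroid, prostaglandin and lysosomal genes held more fallers than risers. Cyp1b1, which oxidises oestrogens and xenobiotics, fell by 6.29, from 11.06, 11.09 and 11.15 to 4.89, 4.74 and 4.80. Hsd11b1, which regenerates active glucocorticoid, fell by 5.74, from 9.17, 9.02 and 9.02 to 3.27, 3.26 and 3.46, and the glucocorticoid receptor gene Nr3c1 fell by 2.35. Of 14 genes of the steroid list 6 were lower, 7 were not called, and Cyp2s1 rose by 1.96. Among 17 prostaglandin genes, 7 were lower and 9 were not called, with the prostacyclin synthase gene Ptgis at -3.94 and the inducible cyclooxygenase gene Ptgs2 at -2.92, and the receptor gene Ptger3 rose by 1.48. Of 20 lysosomal genes, 8 were lower, led by Ctsk (cathepsin K) at -4.56 and Ctss (cathepsin S) at -3.90, while the protease gene Lgmn rose by 1.06.

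DNA repair and ribosome biogenesis genes were mostly higher. Of 24 DNA repair genes, 18 were higher and none lower, the largest share among these nuclear lists, with a median of 1.34. Msh6 of mismatch repair rose by 2.79, Parp1, which marks strand breaks, by 2.37 and Fanci of the Fanconi pathway by 2.11. Of 23 ribosome biogenesis genes 15 were higher and none lower, with Polr1b, a subunit of RNA polymerase I, at 2.16 and Dkc1 (dyskerin) at 1.64. Ribosomal proteins themselves shifted upward by less, with a median of 0.53, and 3 of 59 were called higher. At an adjusted p below 0.05 in the limma fit, whatever the size, 52 of the 59 were higher and 0 lower. The mitochondrial ribosomal proteins had 12 of 77 higher and 1 lower, or 0 lower by limma without fibroblast replicate 1 or dedifferentiated replicate 2. Whatever the size, 52 of these 77 were higher and 6 lower at an adjusted p below 0.05 in the limma fit. Without fibroblast replicate 2, 1 cytosolic ribosomal protein gene was higher. No complex I subunit gene of 35 was called in either direction by limma, and at an unadjusted p below 0.05 there were 14 above and 5 below the fibroblasts.

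Germ cell genes rose in part, with 11 of 20 piRNA and meiosis genes higher and none lower. Tex15, a protein of meiotic recombination and piRNA-guided silencing, rose by 3.44, the axis protein gene Sycp3 by 3.14 and the cohesin gene Stag3 by 2.55. The piRNA pathway gene Tdrd1 at 0.28 and the synaptonemal complex gene Sycp1 at 0.45 were not called. Many of these genes are dim on this array, and counts without dim genes are given in the closing section.

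Of 22 apoptosis regulators, 2 were higher, a share of 9.09% that is near the 8.79% of all genes, and 6 were lower. The risers were Pmaip1 (Noxa) at 2.71 and Bcl2l11 (Bim) at 2.68, both BH3-only proteins. Bcl2 fell by 1.21 and its relative Bcl2l2 by 1.32, and both calls were lost in a test against 1 log2 unit (limma's treat, adjusted p = 0.35 and 0.16). Inflammatory caspase genes Casp12 at -4.62 and Casp4 at -3.44 fell, as did Casp8 at -2.63.

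The list of splicing and RNA-binding regulators moved in both directions, with 4 of 17 higher, 5 lower and 8 not called. Esrp1, the epithelial splicing regulator, read 4.47, 4.73 and 4.17 in fibroblasts and 8.87, 8.84 and 8.89 in dedifferentiated cells, a rise of 4.41. Rbms3, an RNA-binding protein of mesenchyme, fell by 4.19, the splicing factor gene Mbnl1 by 2.52 and Celf2 by 3.23, although a second, dim row of Celf2 stood at -0.18. Rbpms, an RNA-binding splicing regulator of smooth muscle, rose by 1.61.

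Lineage transcription factors were also measured. Of 27 nuclear receptors, 9 were lower and 2 higher. The risers were Nr5a2 at 2.54, which can activate Pou5f1, and Nr6a1, a repressor of it, at 1.88. Rora fell by 2.48 and the vitamin D receptor gene Vdr by 2.35. Among 27 homeobox genes, 6 were lower, led by Prrx1 at -5.03, a factor of limb and fibroblast mesenchyme, and Zeb2 and Zeb1, repressors of E-cadherin, at -4.12 and -2.89. The 5 risers included Six4 at 2.29. Of 23 forkhead and GATA genes, 3 were higher, with Foxh1, a partner of SMAD proteins in Nodal signalling, at 2.92, and 5 lower, with Foxp2 at -3.17 and Foxc2 at -3.05.

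Families grouped by symbol gave a further background. Of 1016 olfactory receptor genes, 0 were called by limma in either direction, and 19 higher and 23 lower passed an unadjusted p of 0.05, and without dedifferentiated replicate 2, 1 was called higher. Zinc finger genes of the Zfp family had 43 of 344 higher and 6 lower. Keratin genes had 7 of 48 higher and none lower, led by Krt18 at 5.65 and Krt8 at 5.19, the pair of simple epithelia. Rab GTPase genes, which direct vesicle traffic, had 13 of 59 lower and 5 higher, and without fibroblast replicate 1 there were 3 higher.

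Markers of other cell types that a heart culture or a stem cell culture could hold were read in the same arrays. Macrophage and leukocyte markers had 4 of 14 lower and 2 higher, and their level, as a mean log2 value over the list, was 5.40 to 5.42 in fibroblasts and 4.55 to 4.59 in dedifferentiated cells. Lyz2 (lysozyme) fell by 5.65, Itgam by 1.77 and Fcer1g by 1.51, while the leukocyte gene Ptprc at -0.83 was not called. The 2 risers were Cd68 at 1.05 and Laptm5 at 1.02. The fallers, but not the risers, move with the lower C1q genes, C1qa at -1.93 for one, and with the immune lists. The part of macrophages in those results was not tested. Without fibroblast replicate 2, 1 macrophage marker was higher, and the same held without fibroblast replicate 3 and without dedifferentiated replicate 3.

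Endothelial markers had 6 of 14 higher and 1 lower, with list means of 4.81 to 4.99 in fibroblasts and 5.42 to 5.51 in dedifferentiated cells. Pecam1, an adhesion molecule that pluripotent mouse cells also express, rose by 2.44, from 4.21, 5.15 and 4.29 to 7.06, 6.98 and 6.92. Cdh5 (VE-cadherin) rose by 1.16, from 4.72, 4.49 and 4.62 to 5.64, 5.82 and 5.85, and it was 1.38 above the ES cells. The endothelial genes Erg at -0.12, Tie1 at -0.07 and Cldn5 at -0.07 were not called. Of 11 primitive endoderm markers, 4 were higher, with Sox17 at 2.95 and Sox7 at 1.59, and 1 lower, and the list mean was 6.51 to 6.61 in fibroblasts and 7.18 to 7.45 in dedifferentiated cells. Of 8 trophoblast markers, 5 were higher, with Tfap2c at 4.37 and Krt7 at 2.63, and Cdx2 at 0.11 and Elf5 at -0.03 were not called. That list averaged 4.24 to 4.31 in fibroblasts and 5.66 to 5.72 in dedifferentiated cells.

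Cardiomyocyte genes had 2 of 17 higher, Myl3 at 2.31 and Nppb at 1.65, and none lower. The defining sarcomere genes Myh6 at -0.12, Tnni3 at 0.01 and Myl2 at -0.03 were not called. Pericyte and smooth muscle markers had 2 of 10 higher, Mcam at 1.90 and Des at 1.33. Mesothelial and epicardial markers had 4 of 10 lower, with Tbx18 at -5.41, and 2 higher, the keratin genes Krt8 and Krt19 at 5.19 and 2.84. Of 10 adipocyte markers 3 were lower, with Lpl at -2.82 and Cd36 at -2.59, while Adipoq at -0.07 and Plin1 at 0.02 were not called. Of 8 Schwann cell and neural crest markers, Erbb3 rose by 2.90 and Sox9 fell by 2.98, and 2 were higher without fibroblast replicate 2, dedifferentiated replicate 1 or dedifferentiated replicate 2. The part of any of these cell types in the other results was not tested.

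Some genes set the dedifferentiated cells apart from both other groups. Counted here are genes called against fibroblasts and, in the same direction, against ES cells, and not called between ES cells and fibroblasts. Of all 19938 genes, 58 were of this kind on the higher side and 10 on the lower. ES cells could still lie between the other groups, since a difference under 1 log2 unit was not called. Slc7a7, for one, was 0.76 higher in ES cells than in fibroblasts. Since these comparisons share arrays and chose the genes, their values are a description. Tspan8, a tetraspanin of epithelial and tumour cells, read 3.68, 3.89 and 3.61 in fibroblasts, 6.63, 6.88 and 7.26 in dedifferentiated cells and 4.13, 4.30 and 4.24 in ES cells. Its change against fibroblasts was 3.20. Gkn2, a secreted stomach protein, stood 2.81 above fibroblasts, and the non-receptor kinase gene Ptk6 2.52 above.

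Genes of chromatin and growth were among them. Dnmt3a, a de novo DNA methyltransferase, read 6.00, 6.36 and 6.29 in fibroblasts, 8.57, 8.49 and 8.56 in dedifferentiated cells and 6.90, 6.79 and 6.91 in ES cells. The transcription factor gene Myb, required in blood progenitors, read 4.77, 4.75 and 4.55 in fibroblasts, 7.03, 7.08 and 7.13 in dedifferentiated cells and 5.57, 5.52 and 5.52 in ES cells. The paternally expressed imprinted gene Dlk1 rose by 2.22, from 5.45, 5.79 and 5.63 to 7.53, 7.93 and 8.06, and read 6.58, 6.63 and 6.62 in ES cells. Prl2c5 rose by 2.46, but it has close copies among the placental prolactin genes. For each of these, all dedifferentiated arrays were above all others.

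On the lower side the differences were smaller. Stard5, a cholesterol-binding protein, read 8.21, 8.23 and 8.26 in fibroblasts, 6.54, 6.50 and 6.46 in dedifferentiated cells and 7.41, 7.56 and 7.66 in ES cells, a change of -1.73 against fibroblasts. Gne, the first enzyme of sialic acid synthesis, fell by 1.62. The antizyme inhibitor gene Azin2 fell by 1.32, as did Polh, a polymerase that copies past damaged bases. The nuclear noncoding RNA Malat1 read 10.67, 10.58 and 11.05 in fibroblasts, 9.67, 9.43 and 9.64 in dedifferentiated cells and 10.67, 10.70 and 10.98 in ES cells.

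**Figure D5:**
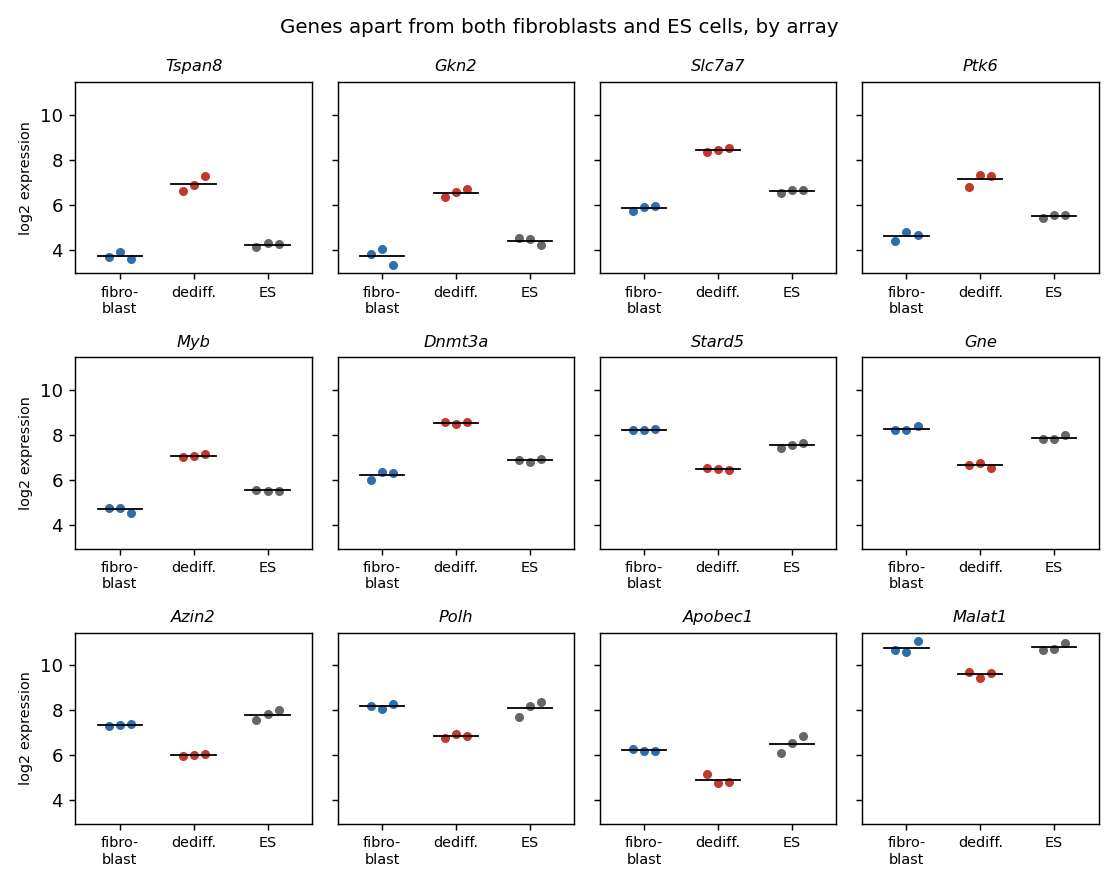
Log2 expression (vertical axis) in fibroblast, dedifferentiated and ES arrays (horizontal axis) of 6 genes that were higher and 6 that were lower in dedifferentiated cells than in both other groups. Points are arrays and bars are means of 3 arrays. In the upper panels up to Dnmt3a the 3 dedifferentiated arrays lie above all others, and from Stard5 on they lie below.

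Promoters of called genes were richer in CpG dinucleotides, the sites of DNA methylation, than those of genes not called. Genes not called include dim ones, such as the 1016 olfactory receptor genes, with a median level of 2.98 in fibroblasts. Windows were not matched by level, so these shares cannot separate the call from the level of expression. Methylation was not measured. Windows were found for 15614 of the 19938 genes. The median window held 20 CpG for higher genes, 17 for lower genes and 13 for genes not called, and 78.4%, 68.6% and 57.6% of the windows held at least 10. The GC box, GGGCGG on either strand, was found in 65.2% of windows of higher genes and 60.5% of those of lower genes, against 49.2% of all. The E2F-type letters TTTGGCGC were found in 1.55% of the windows of higher genes and 0.722% of those of lower genes, against 0.72% of all. TATAAA was less frequent in windows of higher genes, 7.0% against 11.5% of all, and the AP-1 letters TGANTCA stood at 4.87% and 6.9%. The octamer ATGCAAAT, which POU factors bind, was in 2.01% of windows of higher genes and 1.6% of all. Windows of genes with several start sites overlap and were counted each, and a match is a description only.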

How the data were processed

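Expression was read in 9 arrays, 3 per group, and each array's title gave its group. The authors deposited log2 expression values made with RMA in Affymetrix Expression Console 1.1, per the submitters' processing notes. The genome build and probe annotation they used are not given in the sources used here. Of 35557 rows, 21789 had 1 gene symbol in the platform annotation, 1621 had several and 12147 had no symbol listed. Of those with 1 symbol, 21698 were matched to RefSeq. For the 999 genes with several rows, the brightest row on average across the 9 arrays was kept, leaving 19938 genes. Of the 12 named genes with several rows, 2 (Kif14 and Sema4d) had rows of opposite sign.

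One linear model of all 9 arrays was fitted with limma 3.58.1 in R 4.3.3 (lmFit and eBayes), without covariates, and p-values were adjusted over all genes. Intervals are 95%. The number of arrays limits the precision. No 2 arrays held identical values. A test on simulated data, with independent noise at the arrays' own spread, recovered 67 of 67 changes of 1.5 log2 units and called 0 unchanged genes. Of changes of 0.5 log2 units, under the threshold, it called 0 of 67. It cannot show how the calls would hold in separate animals or cultures.

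The genes named were the 30 largest rises and falls (without clones, gene models, collagens and ES markers), up to 3 per direction in each of 48 lists and 11 symbol families, and up to 8 per direction apart from both other groups. Other members are named beside their list's count, and some genes, as stated, after their values had been seen. The comparison and the lists were chosen with earlier results of these data known. Of 878 places in the lists, 50 lacked a row with a single symbol and are not analysed here. No set test was run. Alternatives were the normalization, filters on dim genes, the choice of row, the model, the threshold, a replicate block and leaving out each array.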

Additional observations from a re-analysis of the deposited data

Results flagged for a closer look

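Rows for which the annotation lists no gene symbol took no part in the comparison. Among these 12147 rows, 852 (7.01%) were called higher in the dedifferentiated cells and 179 (1.47%) lower, which drew attention because the signal lies in data outside the main measurement and runs mainly one way. Among rows with 1 symbol, 9.01% were called higher and 9.66% lower, and among the 1621 rows with several symbols, 14.9% and 3.45%. What these rows measure was not tested.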

How the results depend on the processing

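The counts of 1753 higher and 2012 lower genes lay within 1.5-fold of themselves under the alternatives run, apart from 2 for the higher count, which was 3056 with every row tested and 1101 with a test against 1 log2 unit (treat). The lower count was then 2340 and 1459. Quantile normalization again gave 1857 higher and 1917 lower, and a filter at a group mean of 6 gave 1610 and 1781. Leaving out 1 array at a time gave 1732 to 1791 higher and 1977 to 2052 lower genes. With the replicate number as a block the counts were 1753 and 2012. In this balanced design a block leaves each change as it was, so it could alter the counts only through the p-values. The p threshold had little part in the counts, which were 1752 and 2012 at an adjusted p under 0.01. Arrays of the same number correlated in their deviations at 0.101, 0.154 and 0.0377, so the numbers were not taken as pairs. Of 282 named genes, 280 were called and 30 lost the call under some alternative, 29 of them under the test against 1 log2 unit and 10 under others (Cd68, Efna3, Kif14, Laptm5, Mrps6, Psma8, Rpl12, Rpl14, Sema4d and Slc6a9). Of 50 further genes named in the text, 26 were called and 7 lost the call, all 7 under the test against 1 log2 unit, and Mir17 and Mir363 also without single arrays. None of these called genes changed direction. Lists of dim genes depend on the filters: complement genes called lower were 12 without a filter, and 3 above the median level or 7 at a group mean of 6, and piRNA and meiosis genes called higher fell from 11 to 5 above the median level. Macrophage markers called lower went from 4 to 0 above the median level and to 2 at a group mean of 6, and microRNA genes called higher from 12 to 2 and to 5. Dim probe sets limit the size of a change, since the array has a floor.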
